A study of Mus musculus with 4 samples.

Results

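The data describe 10 genes that set or restrain inflammatory signaling through NF-κB and STAT3 in newborn mouse epidermis: the NF-κB subunit genes Nfkb1, Nfkb2 and Relb, the IκB family genes Nfkbia, Nfkbiz and Bcl3, the gene of the deubiquitinase A20 (Tnfaip3), Stat3, and the cytokine signaling inhibitors Socs1 and Socs3. They were chosen by gene symbol from 54752 genes, and each symbol had 1 entry in every table. Total RNA from the epidermis of 4 C57BL/6 pups at postnatal day 0 was sequenced, 2 labelled Skiv2l ctl and 2 labelled Skiv2l fl/fl K14-Cre. In Skiv2l fl/fl K14-Cre pups both alleles of Skiv2l, the helicase gene of the cytoplasmic RNA exosome, are floxed, and Cre is driven by the keratin 14 promoter, so deletion is expected in keratinocytes and not in other cells of the epidermal sheet. Skiv2l ctl pools littermates that were Skiv2l fl/fl, Skiv2l fl/+ or Skiv2l fl/+ K14-Cre. Which of these each control pup was is not given, so a control may carry Cre and 1 floxed allele. All floxed alleles came from a knockout-first allele whose selection cassette had been removed by FLP recombinase.

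NF-κB is a family of dimeric transcription factors held inactive in the cytoplasm by inhibitors of the IκB family. Cytokines of the TNF and interleukin-1 families activate the IκB kinase, which marks the inhibitors for destruction, and NF-κB then switches on target genes that include its own brakes, IκBα (Nfkbia) and A20. IκBζ (Nfkbiz) and Bcl-3 are atypical, nuclear members of the IκB family that bind NF-κB on DNA and change which targets are transcribed. STAT3 is activated by JAK kinases behind receptors of the interleukin-6, interleukin-10 and interleukin-20 families, and SOCS3 is induced by STAT3 and blocks JAK activity. In skin, IκBζ and STAT3 are known for their part in psoriasis-like inflammation.

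Values are FPKM, the deposited fragment values per transcript length and library size, so levels of different genes can be compared. Differences were tested with limma on log2(FPKM + 1) over the 13609 protein-coding genes that exceeded 0.5 FPKM in any library, and all fold changes are on this scale unless given as a ratio of mean FPKM. A gene is called higher or lower at a Benjamini-Hochberg adjusted p under 0.05 over these genes. All 10 regulators passed the filter in all 4 libraries. An exact permutation test of 2 pups against 2 has 0.333 as its smallest two-sided p, and the tests therefore rest on the spread that limma shares across genes. The targeted gene Skiv2l was at 19.3 and 19.1 FPKM in control pups and at 10.8 and 8.55 in knockout pups (log2 fold change -0.92, limma adjusted p = 0.0037), and its call was lost without the first (0.0562) or the second control library (0.0547). Of the keratinocyte markers all 6 were measured, with a summed FPKM of 24300 to 28231 in every library, most of it from Krt1 and Krt10. Within this sum Krt14 was called higher, from 1736 and 1812 FPKM to 7381 and 7312, and Krt1 and Lor were called lower (limma). Krt5, like Krt14 a basal keratin gene, did not follow it (log2 fold change -0.21, not called). Trp63 (-0.08) and Krt10 (-0.44) were not called either. Summed leukocyte markers (11 genes) lay between 42.2 and 53.3 FPKM in control pups and between 24.3 and 27.9 in knockout pups, with 4 of 9 tested markers called lower and none called higher (limma). Of 6 neutrophil markers, Ly6g was at 0 in every library, and only Cxcr2 passed the filter, through the knockouts alone. It was at 0.127 and 0.208 FPKM in control pups and 6.51 and 5.56 in knockout pups. Fibroblast markers (6 genes) summed to 61.3 and 69.0 FPKM in control pups and 21.9 and 25.04 in knockout pups, mostly from Dcn. All 4 erythroid markers were called lower, with sums of 131 and 122 FPKM in control pups and 59.5 and 79.9 in knockout pups, and of 4 melanocyte markers Tyrp1 was called higher. The part of these markers in the results was not tested.

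Of the 10 regulators, 4 were higher and 1 was lower in the epidermis of Skiv2l fl/fl K14-Cre pups relative to Skiv2l ctl, and 5 were not called. Over all tested genes 8.99% were called higher and 25.4% lower. The 10 genes were chosen with earlier results of these data known, so their count beside these shares is a description only. The 4 that rose were the nuclear IκB genes Nfkbiz and Bcl3, Stat3 and Socs3, and the gene that fell was Relb. The classical inhibitor Nfkbia, the A20 gene Tnfaip3, Nfkb1, Nfkb2 and Socs1 did not pass the test. Both knockout libraries were above both controls for 4 of the 10 genes, against 18.2% of all tested genes, and below both for 4, against 55.3%. The median log2 fold change was 0.13 over the 10 genes and -0.20 over all tested genes. With each library scaled to the same median FPKM, the median of all genes became -0.03 and the calls over all genes changed from 1223 higher and 3455 lower to 1894 higher and 1623 lower. Under quantile normalization they were 1683 higher and 1917 lower. Under both scalings 4 of the 10 regulators were called higher and 1 lower, with a background of 13.9% higher and 11.9% lower for median scaling and 12.4% and 14.1% for quantile normalization. In bulk tissue, fewer cells of a type and less RNA per cell cannot be told apart.

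**Figure D1:**
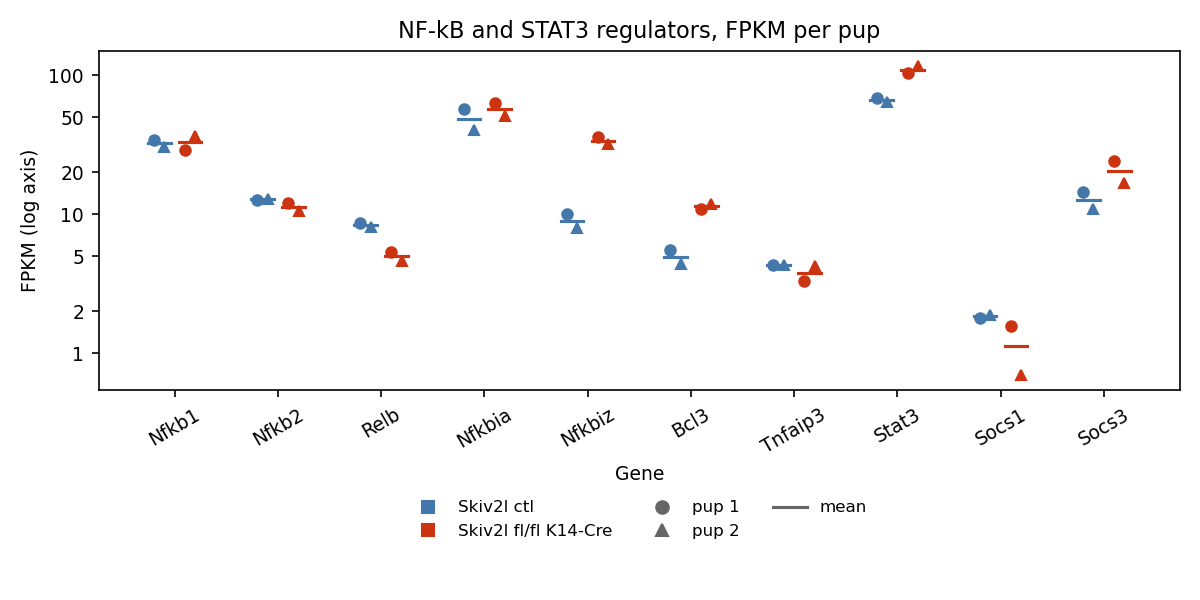
FPKM (log axis) of the 10 regulators in each pup, with Skiv2l ctl in blue, Skiv2l fl/fl K14-Cre in red, circles for pup 1, triangles for pup 2 and a line at the mean of 2 pups. Nfkbiz, Bcl3, Stat3 and Socs3 lie higher in both knockouts, Relb lies lower, and the groups overlap for Nfkb1 and Nfkbia.

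Promoter sequence is shown for the 3 genes that rose and have an entry in the RefSeq promoter table of GRCm38.p6, beside that of Nfkbia, the inhibitor that NF-κB induces. Of the 10 genes 7 matched the table by symbol, and Nfkb1, Nfkbiz and Relb did not. Each line gives the 250 bases upstream of the RefSeq start, 5′ to 3′ on the strand of the gene, with matches in capitals. The windows are chr12:55492648-55492897 for Nfkbia, chr7:19822756-19823005 for Bcl3, chr11:100939541-100939790 for Stat3 and chr11:117969367-117969616 for Socs3, all on the minus strand. The RefSeq starts of Bcl3 and Socs3 lie inside the spans given below for these genes. The 3′ end of the Bcl3 window and the whole Socs3 window are therefore inside them. Searched on both strands were the 10-base NF-κB consensus and the STAT motif TTCNNNGAA.
Nfkbia: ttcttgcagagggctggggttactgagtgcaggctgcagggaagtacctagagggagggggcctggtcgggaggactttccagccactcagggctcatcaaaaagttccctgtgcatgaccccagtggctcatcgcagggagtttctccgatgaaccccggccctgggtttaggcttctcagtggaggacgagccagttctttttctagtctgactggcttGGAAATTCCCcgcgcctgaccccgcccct
Bcl3: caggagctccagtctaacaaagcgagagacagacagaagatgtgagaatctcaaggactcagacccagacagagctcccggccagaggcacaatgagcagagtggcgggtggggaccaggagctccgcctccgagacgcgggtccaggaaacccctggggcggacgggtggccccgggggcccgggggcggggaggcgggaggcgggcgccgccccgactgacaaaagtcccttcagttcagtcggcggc
Stat3: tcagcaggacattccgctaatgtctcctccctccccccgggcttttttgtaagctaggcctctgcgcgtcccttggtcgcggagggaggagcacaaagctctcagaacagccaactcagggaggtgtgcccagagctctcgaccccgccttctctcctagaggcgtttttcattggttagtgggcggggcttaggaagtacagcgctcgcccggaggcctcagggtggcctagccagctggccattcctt
Socs3: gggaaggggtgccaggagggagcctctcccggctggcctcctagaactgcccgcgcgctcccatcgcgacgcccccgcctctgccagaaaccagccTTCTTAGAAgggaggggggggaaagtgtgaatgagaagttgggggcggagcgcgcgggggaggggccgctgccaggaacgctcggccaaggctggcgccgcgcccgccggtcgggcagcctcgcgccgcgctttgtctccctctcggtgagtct
The capitals in Nfkbia mark an NF-κB consensus match that begins 29 bases before the start, and those in Socs3 mark a STAT motif that begins 154 bases before it. No match to either motif was in the windows of Bcl3, Stat3 and Socs1. Of 32851 such windows over all genes, 7.25% held an NF-κB consensus match and 7.02% the STAT motif. The window at the first Tnfaip3 start held 2 NF-κB matches, GGGACACCCC and GGAAATCCCC. The window at the first Nfkb2 start held 3, GGGAATTCCC and GGAATTCCCC, which overlap, and GGGGCTTTCC, and a STAT motif, TTCCCCGAA. Windows at further Nfkb2 starts held 1 NF-κB match each, GGAATGTCCC and GGGACTTTCC. The window at the other Tnfaip3 start held no match to either motif.

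Among the IκB family genes of the 10 regulators, the nuclear members Nfkbiz and Bcl3 rose and the inhibitor Nfkbia was not called. Nfkbiz (ENSMUSG00000035356.17, chromosome 16 of GRCm38, 55811375 to 55838899) encodes IκBζ. It was at 10.001 and 7.93 FPKM in the controls and at 35.7 and 31.9 in the knockouts. The groups were far apart, and the pups within a group were close. The mean FPKM was 3.77 times that of the controls, with a log2 fold change of 1.81 (95% CI 1.497 to 2.12, standard error 0.13, adjusted p = 0.00047 from limma). Only 1.09% of the tested genes had a higher log2 fold change. Nfkbiz was called under all 13 alternatives. No 75-base stretch of its transcripts occurs in another gene, and its exons overlap no other gene.

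Bcl3 (ENSMUSG00000053175.17, chromosome 7, 19808462 to 19822770) encodes Bcl-3, which binds homodimers of the NF-κB subunits p50 and p52. It was at 5.51 and 4.38 FPKM in the controls and at 10.97 and 11.9 in the knockouts. Both knockouts were above both controls, and the knockout pups differed less from each other than the controls did. The ratio of mean FPKM was 2.31 and the log2 fold change 1.07 (95% CI 0.76 to 1.38, adjusted p = 0.0025 from limma). The antisense gene Gm16175 overlaps exons of Bcl3. It was between 0.279 and 0.719 FPKM, and its part in the Bcl3 value was not tested.

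Nfkbia (ENSMUSG00000021025.8, chromosome 12, 55489410 to 55492647) encodes IκBα, which holds NF-κB in the cytoplasm. It was at 57.0 and 40.1 FPKM in the controls and at 62.7 and 51.1 in the knockouts. The groups overlapped, since the higher control exceeded the lower knockout. The log2 fold change was 0.24 with a 95% CI of -0.20 to 0.68 (adjusted p = 0.332 from limma), so a rise of the size seen for Nfkbiz lay outside this interval. Without the second control library it was -0.0101. Tnfaip3 (ENSMUSG00000019850.11, chromosome 10, 19000910 to 19015657), whose product A20 removes ubiquitin chains from signaling proteins upstream of NF-κB, was at 4.30 and 4.29 FPKM in control pups and 3.31 and 4.23 in knockout pups. Both knockouts were below both controls, the second by little. Its log2 fold change was -0.16 (95% CI -0.49 to 0.17, adjusted p = 0.387 from limma), and 0.014 and 0.059 with median scaling and with quantile normalization.

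The NF-κB subunit genes did not move together. Relb (ENSMUSG00000002983.17, chromosome 7, 19606217 to 19629438) encodes the partner of p52 in the alternative NF-κB pathway. It was at 8.70 and 8.04 FPKM in the controls and at 5.39 and 4.63 in the knockouts. Both knockouts were below both controls by several times the spread within a group. Its log2 fold change was -0.64 (95% CI -0.93 to -0.36, adjusted p = 0.0098 from limma), and 88.8% of tested genes had a higher value. It was -0.46 under median scaling (adjusted p = 0.0324 from limma) and -0.45 under quantile normalization (0.0327). The call was lost without the first control library (adjusted p = 0.106) and without the second (0.0796). Relb is also expressed by dendritic cells. The leukocyte markers Cd74, H2-Aa, Csf1r and Ptprc fell too, from 13.1 and 16.4 to 4.61 and 4.39 FPKM for Cd74, and their part in the fall of Relb was not tested.

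Nfkb2 (ENSMUSG00000025225.14, chromosome 19, 46304737 to 46312090) encodes the precursor of p52. It was at 12.8 FPKM in both controls and at 11.96 and 10.6 in the knockouts. The groups did not overlap, but the step was small. Its log2 fold change of -0.17 (95% CI -0.42 to 0.08, adjusted p = 0.227 from limma) was close to the median of all genes and became 0.027 under median scaling. Of the 75-base stretches of its transcripts, 13.6% occur in other genes, among them Psd on the opposite strand, which was at 2.55 to 5.34 FPKM, so part of its value is uncertain. Nfkb1 (ENSMUSG00000028163.17, chromosome 3, 135584655 to 135691547), the gene of the p50 precursor, was at 34.0 and 30.6 FPKM in control pups and 29.0 and 36.6 in knockout pups. The knockouts enclosed the controls, with a log2 fold change of 0.01 (95% CI -0.30 to 0.33, adjusted p = 0.94 from limma). It fell to -0.15 without the second knockout library, to -0.060 without the second control library and to -0.033 with TPM.

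Of the STAT3 arm, Stat3 and Socs3 rose. Stat3 (ENSMUSG00000004040.16, chromosome 11, 100885098 to 100939540) had the highest level of the 10 genes in every library. It was at 68.5 and 64.3 FPKM in the controls and at 104 and 116 in the knockouts. The groups were clearly separated. The ratio of mean FPKM was 1.65 and the log2 fold change 0.71 (95% CI 0.49 to 0.94, adjusted p = 0.0032 from limma). It overlaps Stat5a on the opposite strand, which was at 10.9 to 12.6 FPKM in every library, and none of its 75-base stretches occur in another gene.

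Socs3 (ENSMUSG00000053113.3, chromosome 11, 117966079 to 117970047), the feedback inhibitor of receptors that use gp130, was at 14.5 and 10.99 FPKM in the controls and at 24.0 and 16.8 in the knockouts. Both knockouts were above both controls, but each group had a wide spread. The log2 fold change was 0.63 (95% CI 0.16 to 1.10, adjusted p = 0.0494 from limma), at the edge of the threshold. The call was held under 6 of 13 alternatives. It was lost without the first control library (adjusted p = 0.102), without the second (0.256) and without the first knockout library (0.149), while the direction stayed the same under all alternatives. Socs1 (ENSMUSG00000038037.5, chromosome 16, 10782240 to 10785536), which inhibits JAK kinases downstream of interferon receptors, had the lowest level of the 10 genes. It was at 1.81 and 1.90 FPKM in the controls and at 1.57 and 0.699 in the knockouts. The knockout pups differed 2.25-fold from each other. Its log2 fold change was -0.45 (95% CI -0.97 to 0.07, adjusted p = 0.148 from limma), and without the first knockout library it was -0.75 with an adjusted p of 0.0256.

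**Figure D2:**
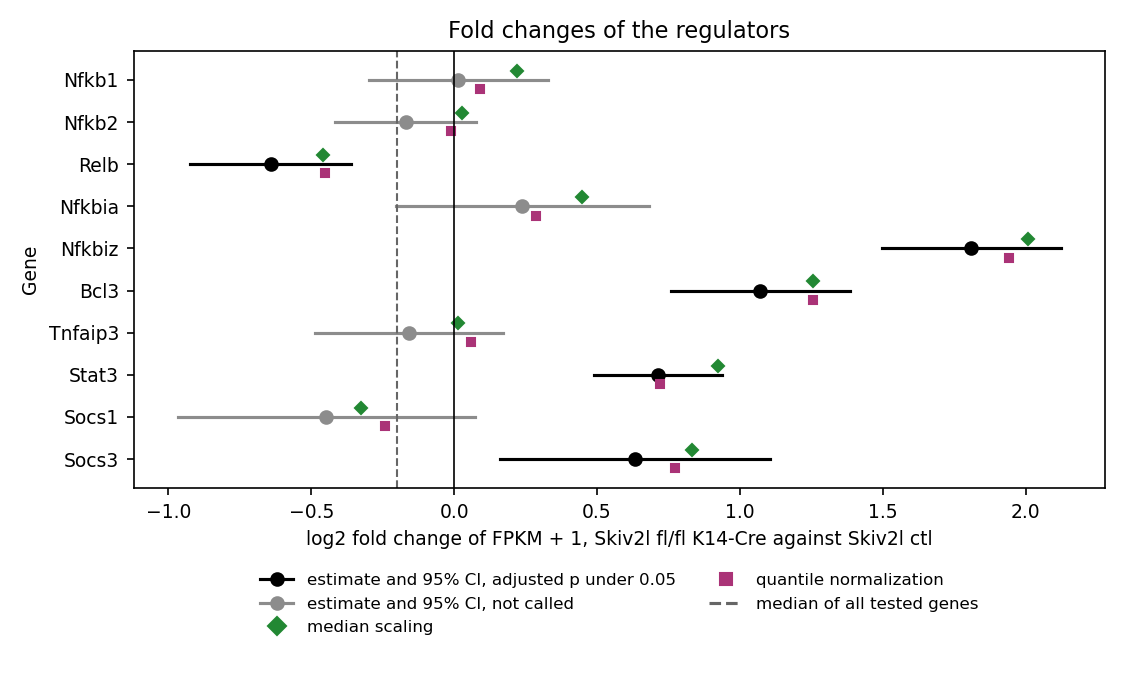
Log2 fold change of FPKM + 1 in Skiv2l fl/fl K14-Cre against Skiv2l ctl epidermis (horizontal axis) for the 10 regulators, with the limma estimate and 95% CI (black where called, grey where not), and the estimates under median scaling (green diamonds) and quantile normalization (purple squares). Nfkbiz at 1.81, Bcl3 at 1.07, Stat3 at 0.71 and Socs3 at 0.63 lie to the right of 0 and Relb at -0.64 to the left, while the dashed line marks the median of all tested genes at -0.20.

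The order of levels within the tissue changed with the genotype. In Skiv2l ctl epidermis mean FPKM ran from Stat3 (66.4) through Nfkbia (48.6), Nfkb1 (32.3), Nfkb2 (12.8), Socs3 (12.7), Nfkbiz (8.97), Relb (8.37), Bcl3 (4.94) and Tnfaip3 (4.29) to Socs1 (1.85). Nfkb2 and Socs3, and Nfkbiz and Relb, overlapped between pups, while the other neighbors did not. In Skiv2l fl/fl K14-Cre epidermis Nfkbiz moved from rank 6 to rank 3 at 33.8 FPKM, where it overlapped Nfkb1, and Bcl3 moved from rank 8 to rank 6 at 11.4 FPKM, where it overlapped Nfkb2. Nfkb2 went from rank 4 to rank 7, and Stat3, Nfkbia, Socs3, Tnfaip3 and Socs1 kept their ranks.

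Ratios of 2 genes within a library do not change when a library is multiplied by 1 factor, as in median scaling, but do under quantile normalization. The FPKM of Nfkbiz was 0.175 and 0.198 of that of Nfkbia in control pups and 0.568 and 0.625 in knockout pups. The ratio of Bcl3 to Nfkbia was 0.0966 and 0.109 in control pups and 0.175 and 0.233 in knockout pups. Both nuclear IκB genes thus stood higher against Nfkbia in both knockouts than in either control. Relb was 0.318 and 0.289 of Rela, the gene of the main activating subunit, in control pups and 0.167 and 0.154 in knockout pups. Bcl3 was below Relb in the controls, with ratios of 0.633 and 0.544, and above it in the knockouts, with 2.04 and 2.57. The ratio of Socs3 to Stat3 overlapped between the groups, at 0.211 and 0.171 in control pups and 0.232 and 0.145 in knockout pups. The ratio of Socs1 to Socs3 was 0.125 and 0.173 in control pups and 0.0656 and 0.0415 in knockout pups. These ratios are descriptions, since 2 pups per genotype cannot give an exact permutation p below 0.333.

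**Figure D3:**
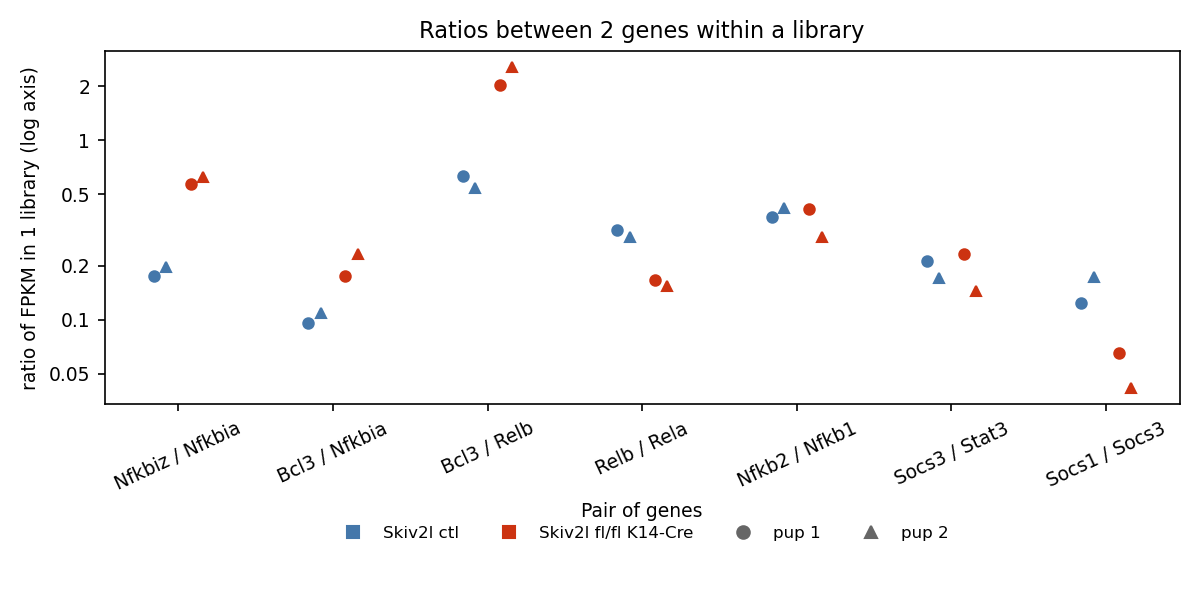
Ratio of the FPKM of 2 genes within each library (log axis) for 7 pairs, with Skiv2l ctl in blue, Skiv2l fl/fl K14-Cre in red, circles for pup 1 and triangles for pup 2. The groups are apart for Nfkbiz to Nfkbia, Bcl3 to Nfkbia, Bcl3 to Relb, Relb to Rela and Socs1 to Socs3, and overlap for Nfkb2 to Nfkb1 and Socs3 to Stat3.

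Of 49 further NF-κB pathway genes of subunits, inhibitors, kinases, adaptors and ubiquitin regulators, 47 were tested, and 5 were called higher and 6 lower (limma), beside 8.99% and 25.4% of all tested genes, with a median log2 fold change of -0.034. With median scaling (13.9% and 11.9% of all genes) the calls were 11 higher and 1 lower, and quantile normalization gave 9 and 2, so the balance of directions rests on the scaling. Without either control library 1 was called higher and 0 lower, while the calls over all genes fell to 497 higher and 805 lower without the first and to 542 and 810 without the second. Rela was at 27.4 and 27.8 FPKM in control pups and 32.2 and 30.1 in knockout pups (log2 fold change 0.17, limma adjusted p = 0.164; 0.38 with adjusted p = 0.0201 under median scaling). Rel was at 4.59 and 5.08 in control pups and 4.67 and 5.43 in knockout pups, and the groups overlapped. Zc3h12a, which encodes the RNase Regnase-1 that degrades inflammatory mRNAs, had the largest log2 fold change of the list in size on the log2(FPKM + 1) scale. By ratio of mean FPKM, with a pseudocount of 0.1 and with TPM the fall of Traf5 was larger. Zc3h12a went from 10.7 and 10.4 to 20.1 and 23.4 FPKM (log2 fold change 0.97, limma adjusted p = 0.0018). Irak3, an inhibitory kinase of interleukin-1 and Toll-like receptor signaling, rose by 0.67. Nfkbid, a further nuclear IκB gene, rose from 0.796 and 0.829 to 1.59 and 1.40 FPKM (log2 fold change 0.46, limma adjusted p = 0.0431). Its call was lost with the replicate number as a block (adjusted p = 0.0661). The other IκB genes of the list, Nfkbib and Nfkbie, were lower in both knockouts than in both controls without a call. Their log2 fold changes were -0.14 and -0.36 (limma adjusted p = 0.308 and 0.0917). Among the genes that fell were the adaptor Traf5 (log2 fold change -0.88) and Tab3 (-0.51), a subunit of the TAK1 kinase complex. Tab3 was not called under median scaling (adjusted p = 0.0718) or quantile normalization (0.0594). The calls of Irak3, Nfkbid, Traf5 and Tab3 were each lost without the first and without the second control library, with adjusted p from 0.0627 to 0.144, and that of Nfkbid also without either knockout library. The IκB kinase genes Chuk and Ikbkb had log2 fold changes of -0.03 and 0.03 with overlapping groups. Ikbkg, of the same complex, was lower in both knockouts than in both controls without a call (-0.32, limma adjusted p = 0.0885). Of 9 tested genes of the IκB kinase complex and kinases, 3 were called lower and 0 higher, beside 25.4% and 8.99% of all tested genes. These were Tab1 (-0.44), Tab2 (-0.37) and Tab3.

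In the JAK-STAT pathway the receptor chains held the largest changes. Of 38 genes listed, 35 were tested, 9 were called higher and 6 lower (limma), beside 8.99% and 25.4% of all tested genes, and the median log2 fold change was -0.035. With median scaling (13.9% and 11.9% of all tested genes) the calls were 11 higher and 2 lower. Fewer genes of the list were called without either control library, as over all tested genes. Il4ra, the receptor chain for interleukin-4 and interleukin-13, went from 7.22 and 8.59 FPKM in control pups to 94.1 and 66.0 in knockout pups (log2 fold change 3.17, limma adjusted p = 0.00024). Osmr, the oncostatin M receptor, which signals through STAT3, went from 2.47 and 3.31 to 10.996 and 8.40 FPKM (log2 fold change 1.46). Il6st, which encodes the shared chain gp130, went from 46.9 and 40.7 to 57.1 and 67.5 FPKM (log2 fold change 0.50, limma adjusted p = 0.0225), and its call was lost without either control library (adjusted p = 0.076 and 0.146) and without the second knockout library (0.0689). The chains of the interleukin-20 receptor moved in opposite directions. Il20ra went from 0.227 and 0.313 to 3.17 and 2.04 FPKM, while Il20rb went from 49.7 and 62.6 to 18.5 and 23.4. Il20ra passed the filter only through the knockouts, which let it be called only higher. Ifngr1, a chain of the interferon-γ receptor, rose by 1.03, with 12.01 and 12.1 FPKM in control pups and 25.9 and 25.3 in knockout pups.

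Stat5b, a mediator of growth hormone and prolactin signals, was called lower, from 11.8 and 9.71 FPKM to 6.59 and 8.22 (log2 fold change -0.49, limma adjusted p = 0.0447). Stat2, Stat5a and Stat6 had log2 fold changes of 0.14, -0.05 and 0.17 without a call. Whether these changes differ from that of Stat3 was not tested. Jak1 was at 54.8 and 54.0 FPKM in control pups and 53.0 and 53.2 in knockout pups (log2 fold change -0.03, and 0.17 under median scaling), and Jak2 went from 6.96 and 7.57 to 11.8 and 11.7. Of the SOCS family beyond the regulators, Socs2, Socs5 and Socs6 were called higher, with log2 fold changes of 0.68, 0.92 and 0.40. Cish, which encodes an inhibitor of STAT5 signaling, was called lower at -0.51. Ptpn6, a phosphatase best known from blood cells, was called lower at -0.78. Leukocyte markers were lower too, and their part in the fall of Ptpn6 was not tested. Of the JAK-STAT list 6 genes were called lower, but only 2 with median scaling and 2 with quantile normalization, Il20rb among them. Most lower calls of this list thus rest on the scaling.

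Among the ligands the interleukin-36 genes and Il33 rose. Of 39 ligand and receptor genes 26 passed the filter, 9 were called higher and 4 lower (limma), beside 8.99% and 25.4% over all tested genes, and the median log2 fold change was 0.16. With median scaling (13.9% and 11.9% of all tested genes) the calls were 10 higher and 2 lower. They were 5 and 1 without the first control library and 5 and 0 without the second, where the calls over all genes also fell (to 497 and 805, and to 542 and 810). All 3 agonists of the interleukin-36 receptor rose, Il36a from 15.3 and 17.2 FPKM to 96.5 and 72.0, Il36g from 35.8 and 38.9 to 96.4 and 100 and Il36b from 20.8 and 18.9 to 37.2 and 32.3. Their receptor gene Il1rl2 went from 25.5 and 28.3 to 42.2 and 42.7 FPKM (log2 fold change 0.64, limma adjusted p = 0.004). Of 14 tested NF-κB receptor genes 3 were called higher and 2 lower. Of the latter, Il1rap went from 12.3 and 13.6 to 8.97 and 9.07 FPKM (log2 fold change -0.47, limma adjusted p = 0.0155). Il1rl1 did not exceed 0.038 FPKM and was not tested. Il33 had the largest change, with a log2 fold change of 5.60. Of the classical NF-κB ligands, Tnf was called lower, from 1.04 and 0.966 to 0.423 and 0.332 FPKM, Il1a was at -0.27 and Il1b at -0.06 without a call. Tnf lay near the filter of 0.5 FPKM and did not pass the stricter one of 2 samples over 1 FPKM. Among the ligands of STAT3, Il24 went from 0.242 and 0.0979 to 4.34 and 2.15 FPKM and Clcf1 from 1.22 and 1.25 to 4.70 and 2.57, while Ctf1 was called lower (log2 fold change -0.93). Il24 passed the filter only through the knockouts, which let it be called only higher. The call of Clcf1 was lost without the first (adjusted p = 0.121) and the second control library (0.117), and that of Il24 without the second (0.0574). Il6 and Il22 were listed at 0 in every library, and Osm did not exceed 0.185 FPKM. Tlr2, a Toll-like receptor also found on leukocytes, was called lower at -0.89, and the part of leukocytes in this was not tested.

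Of 35 target genes listed, 27 were tested, with a median log2 fold change of 0.20. Of these, 11 were called higher and 0 lower (limma, with 0 lower also at an unadjusted p under 0.05). The called genes Defb4, Lcn2, Ptgs2 and Ccl20 exceeded 0.5 FPKM only in knockout libraries. The filter thus let them be called only higher, so the balance of calls is in part set by it. Of all tested genes 8.99% were called higher and 25.4% lower, and 13.9% and 11.9% with median scaling. With median scaling 13 were called higher and under quantile normalization 10, while 6 were called without the first and 6 without the second control library. The 4 genes listed as targets of IκBζ, S100a8, S100a9, Defb4 and Lcn2, were all called higher. The alarmin and defensin genes were known to be raised when the list was made, so they are not independent evidence of its direction. Lcn2, which encodes the iron-scavenging lipocalin 2, went from 0.137 and 0.390 to 2.79 and 1.86 FPKM. Among 11 tested NF-κB targets, 4 were called higher. Ptgs2, the inducible cyclooxygenase, went from 0.436 and 0.153 to 8.99 and 3.43 FPKM (log2 fold change 2.37), and Ier3 from 10.1 and 8.65 to 32.0 and 58.9 (2.10). The call of Ptgs2 was lost without the first (adjusted p = 0.0562) and the second control library (0.0706). The other called targets were Tnfaip2 and Ccl20, at 1.86 and 0.99. Ccl20 was low, at 0 and 0.276 FPKM in control pups and 1.63 and 0.905 in knockout pups. The widely used NF-κB targets Icam1, Sod2 and Gadd45b had log2 fold changes of -0.12, -0.17 and -0.19 without a call. Among 12 tested STAT3 targets, 3 were called higher, the transcription factors Junb, Fosl1 and Cebpd, at 1.10, 0.87 and 0.74. Junb had a wide spread in both groups, at 107 and 71.9 FPKM in control pups and 136 and 261 in knockout pups (limma adjusted p = 0.0435). Pim1, Myc, Mcl1 and Bcl2l1 were between -0.14 and 0.20 without a call.

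**Figure D4:**
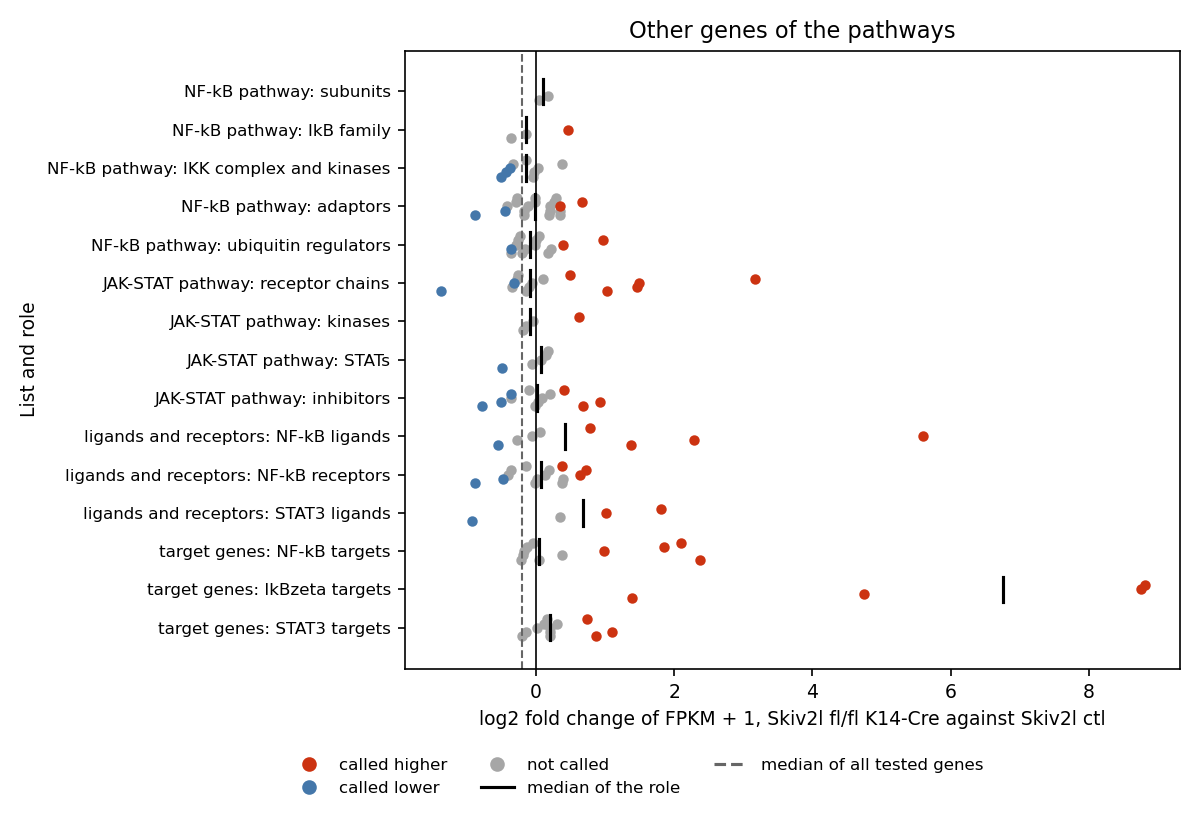
Log2 fold change of FPKM + 1 in Skiv2l fl/fl K14-Cre against Skiv2l ctl epidermis (horizontal axis) for the tested genes of each list and role (vertical axis), with genes called higher in red, called lower in blue and not called in grey. Black bars are the medians of the roles, and the dashed line is the median of all tested genes at -0.20. Most NF-κB components lie near 0, while single receptor chains, ligands and targets reach far to the right, S100a8 furthest at 8.81.

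**Figure D5:**
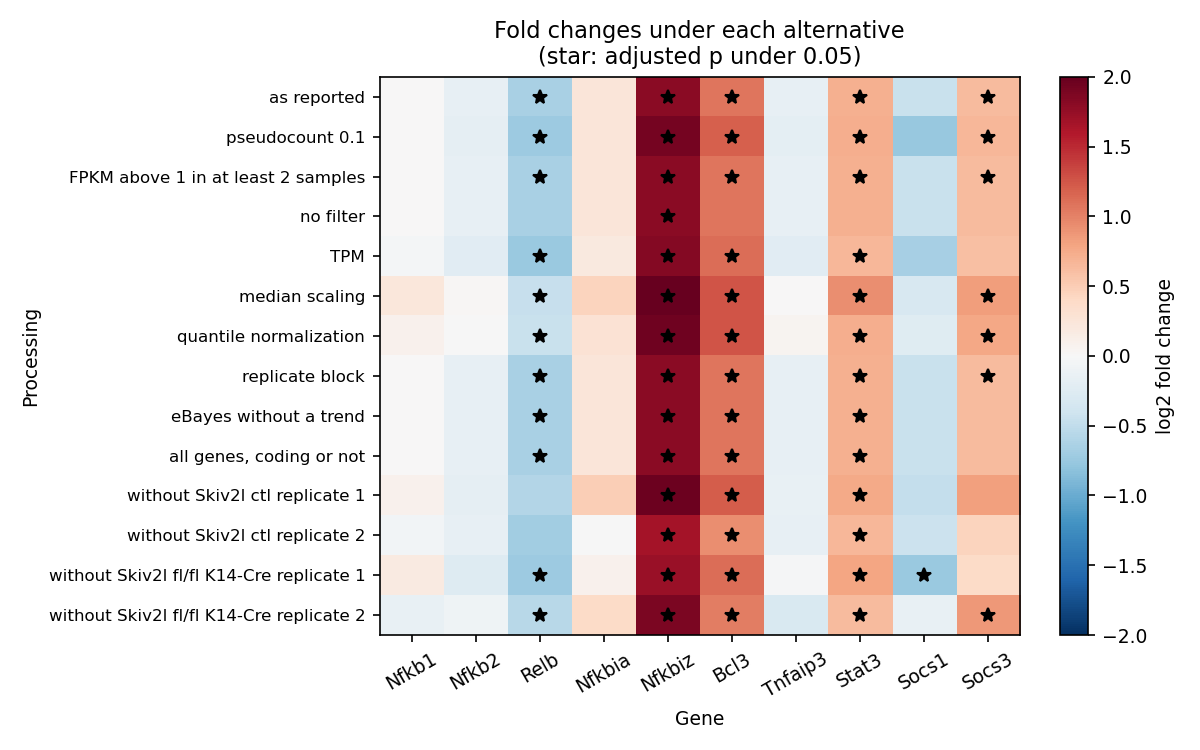
Log2 fold change (color scale) of the 10 regulators under the reported processing and each of 13 alternatives (vertical axis), with a star where the adjusted p was under 0.05. Nfkbiz has a star in every row, Bcl3 and Stat3 in all but the fit without a filter, Relb in 10 of 13 alternatives and Socs3 in 6 of 13.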

How the data were processed

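RNA of the epidermis of 4 pups at postnatal day 0 was measured, 2 per genotype. The authors ran a workflow of their institution on GRCm38 and deposited 1 table per pup. The deposited FPKM values were scaled by the authors for length and library size, the deposited TPM values sum to the same total in each library, and the deposited coverage signal is the mean read depth of a gene. The aligner, the counting tool and its use of strand are not given in the sources used here. FPKM of an identifier listed more than once were summed. Biotypes came from GENCODE M21, matched without version numbers (54029 of 54752 genes had the same coordinates). The filter followed the study and kept 13609 of 21921 protein-coding genes, those that exceeded 0.5 FPKM in any library. The test was chosen here: limma 3.58.1 (R 4.3.3), fitted to log2(FPKM + 1). Moderated variances followed a trend, tests were two-sided, and p-values were adjusted by Benjamini-Hochberg.

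The ratio of coverage to FPKM, 5.843 to 6.274 between libraries, gives their relative depth. No counts were used, so counting error is unknown and 2 pups per genotype limit the precision. Il36a, Il36b and Il36g are listed under older symbols (Il1f6, Il1f8, Il1f9) and were matched through RefSeq synonyms. A symbol with more than 1 identifier is represented by the higher mean FPKM. The members and lists were chosen with earlier results of these data known. Genes named are the 10 members, Skiv2l, the partners Rela, Rel, Jak1 and Il6st, and the 5 largest called changes of each list with groups that do not overlap. Other list genes were named after their values were seen, and 1 further partner is not reported here. Alternatives were a pseudocount of 0.1, a stricter filter (2 samples over 1 FPKM), unfiltered genes, TPM, quantile normalization and median scaling, blocking on the replicate number, variances without a trend, noncoding genes added, and leaving out each library.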

Additional observations from a re-analysis of the deposited data

How the results depend on the processing

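The log2 fold changes of Nfkbiz, Bcl3, Relb, Stat3, Socs1 and Socs3 kept their direction under all 13 alternatives. Those of genes near 0 turned. With TPM Nfkb1 was at -0.033. With median scaling Nfkb2 was at 0.027, Tnfaip3 at 0.014 and Jak1 at 0.17, and with quantile normalization Tnfaip3 was at 0.059. When each library was left out in turn, Nfkb1 ranged from -0.15 to 0.18, Nfkbia from -0.0101 to 0.49 and Rel from -0.040 to 0.14. The cause of the changes below was not tested.

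Without a filter, on 21921 genes, 475 genes were called higher and 927 lower in all, 1 and 0 of the 10 regulators, 2 and 1 NF-κB pathway genes, 5 and 1 JAK-STAT pathway genes, 5 and 1 ligands and receptors and 4 target genes higher. Skiv2l was then at -0.92 with an adjusted p of 0.0706. With median scaling 1894 genes were called higher and 1623 lower in all, 11 and 1 of the NF-κB pathway, and 2 JAK-STAT pathway genes and 2 ligands and receptors lower. With quantile normalization 1917 genes were called lower, 9 and 2 of the NF-κB pathway higher and lower, and 2 JAK-STAT pathway genes and 2 ligands and receptors lower. The JAK-STAT pathway genes called lower numbered 3 with eBayes without a trend and 3 with all genes.

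When each library was left out in turn, the calls ranged from 497 to 1146 higher and 805 to 3135 lower over all genes, lowest without a control library. They ranged from 3 to 4 higher and 0 to 2 lower among the regulators, 1 to 5 and 0 to 6 in the NF-κB pathway, 5 to 8 and 1 to 5 in the JAK-STAT pathway, 5 to 9 and 0 to 5 among ligands and receptors, and 6 to 10 and 0 to 1 among target genes. Skiv2l ranged from -1.08 to -0.77 and was not called without the first (adjusted p = 0.0562) or the second (0.0547) control library. The lone sample is then assumed to vary like the other group. With the replicate number as a block, 1264 genes were called higher and 3393 lower, and 4 and 1 of the regulators. Whether same-numbered pups share more than a number, such as a litter or a batch, is not given. Their deviations correlated at -0.077 over genes, which cannot decide this with 2 pups per genotype. No counts were used, so the depth behind low genes such as Socs1 is not known.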
